A study of Mus musculus with 4 samples.

Results

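The genes described here are Egr1, Egr2, Egr3 and Egr4, the 4 early growth response genes measured among the 31053 genes of the count matrices. They are picked out by name with no threshold on a measured value, although the family was proposed with earlier results of these data known, and all 4 passed the filter on low counts in each fit reported below. Egr proteins are zinc-finger transcription factors encoded by immediate early genes, whose transcripts appear quickly after synaptic activity, growth factors or injury and decay soon after. In neurons the calcium and ERK signalling cascades switch these genes on through serum response factor, its ternary complex partners of the ELK family and factors of the CREB family. The Egr proteins in turn bind GC-rich sites in their target genes, where the co-repressors Nab1 and Nab2 restrain them. Egr1, also called Zif268, and Egr3 are best known from cortical and hippocampal plasticity, and Egr2, also called Krox20, from hindbrain patterning and peripheral myelination. Egr4 is the least studied member of the family.

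MERGE-seq pairs single-cell RNA sequencing with retrograde viral barcodes, so that the transcriptome of a neuron and the regions it projects to are read from the same cell. Male C57BL/6 mice, 8 weeks old, received rAAV2-retro viruses that carry EGFP under a short CAG promoter, each with its own barcode, in 5 targets of the ventromedial prefrontal cortex on one side. The targets were the agranular insula, the dorsomedial striatum, the mediodorsal thalamus, the basolateral amygdala and the lateral hypothalamus. Cells of the prelimbic and infralimbic areas were dissociated enzymatically with blockers of glutamate receptors and sequenced with a droplet 3' assay. The data hold 3 unsorted libraries, called unsorted replicates 1 to 3, and 1 library of cells sorted for EGFP from 3 pooled mice, called sorted replicate 1. All 4 libraries come from injected animals, so no value here is from tissue without virus. Each unsorted library came from a different mouse, processed in its own well of one chip, so their spread holds both animal and library differences.

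The authors grouped the excitatory neurons into 7 subtypes, each named by a cortical layer and a leading gene: L2/3-Calb1, L2/3-Rorb, L5-Bcl6, L5-Htr2c, L5-S100b, L6-Npy and L6-Syt6. Of 9368 annotated neurons, 2816, 2486 and 2463 came from unsorted replicates 1 to 3 and 1603 from the sorted library. The median UMI count per neuron was 21343.5 to 23213 over the unsorted libraries and 31669 after the sort, and the whole libraries held between 54728191 and 87809114 gene UMIs. Each name gene was highest in its own subtype: Syt6 at 132 ± 3.51 CPM in L6-Syt6 and Npy at 238 ± 35.0 CPM in L6-Npy, for example (mean ± SD, n = 3 unsorted libraries). CPM is the summed UMIs of a gene as counts per 1000000 gene UMIs of the summed cells. Between 5 and 30 cell barcodes were shared by any pair of libraries, and at most 4 among the neurons.

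RefSeq promoters (GRCm38.p6) were matched for Egr2 and Egr4 and not for Egr1 and Egr3, so only Egr2 and Egr4 are shown. These were also the members with the highest log2 folds in both L6 subtypes in the barcode comparison. With no promoter of the other members, a link between motifs and folds was not tested. The 250 bases upstream were searched on both strands for the letters of the cAMP response element TGACGTCA, of its core TGACG, which is contained in the full element, of the CArG box that serum response factor binds, and of the Egr site GCGTGGGCG. Egr4 held 2 core sites, which begin 177 and 109 bases before its start, and none of the other letters. Egr2 had 5 promoter entries. Of these, the window that ends at the transcript start at 67537869 held core sites that begin 111 and 55 bases upstream and a CArG box 72 bases upstream. Another Egr2 window, which begins at 67537316, held a different CArG box. Among 32851 RefSeq promoters, 17.8% held a core site, 1.55% a full element, 1.47% a CArG box and 0.536% an Egr site in the window of the same length. The first sequence is the whole Egr4 window (chr6:85513590-85513839, minus strand) with the core sites in capitals, and the second a stretch of the Egr2 window (chr10:67537797-67537818, plus strand) with the CArG box and then the nearer core site in capitals.
Egr4: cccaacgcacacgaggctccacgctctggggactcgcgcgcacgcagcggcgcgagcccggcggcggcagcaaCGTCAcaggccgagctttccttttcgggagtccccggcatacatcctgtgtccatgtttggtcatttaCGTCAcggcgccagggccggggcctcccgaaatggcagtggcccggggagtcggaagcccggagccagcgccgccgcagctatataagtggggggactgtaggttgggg
Egr2: CCATATATGGgcagcgaCGTCA

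Each member is a protein-coding gene that overlaps no other annotated gene. On GRCm38 (GENCODE vM21), Egr1 (ENSMUSG00000038418) lies on chromosome 18 from 34859823 to 34864984 on the plus strand, with 2 merged exons of 4484 bases. Egr2 (ENSMUSG00000037868) lies on chromosome 10 from 67535475 to 67542188 on the plus strand, with 5 merged exons of 3398 bases. Egr3 (ENSMUSG00000033730) is on chromosome 14 from 70077203 to 70082614 on the plus strand, with 4 merged exons of 4406 bases. Egr4 (ENSMUSG00000071341) is on chromosome 6 from 85511121 to 85513589 on the minus strand and is the shortest member, with 2 merged exons of 2148 bases. The assay reads transcript ends, so exon number and isoform are not resolved.

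The question of where in the prefrontal cortex the Egr genes were read was taken up first by subtype. Egr2 and Egr4 differed widely between subtypes, Egr3 less and Egr1 least: the highest subtype mean was 7.84 times the lowest for Egr2, 6.76 times for Egr4, 3.16 times for Egr3 and 2.11 times for Egr1. The subtypes were clustered by the authors on expression that may have included these genes, so the levels are a description and were not tested. Because the 4 transcripts differ in length and in their 3' ends, levels are compared between subtypes for one gene and never between genes.

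**Figure D1:**
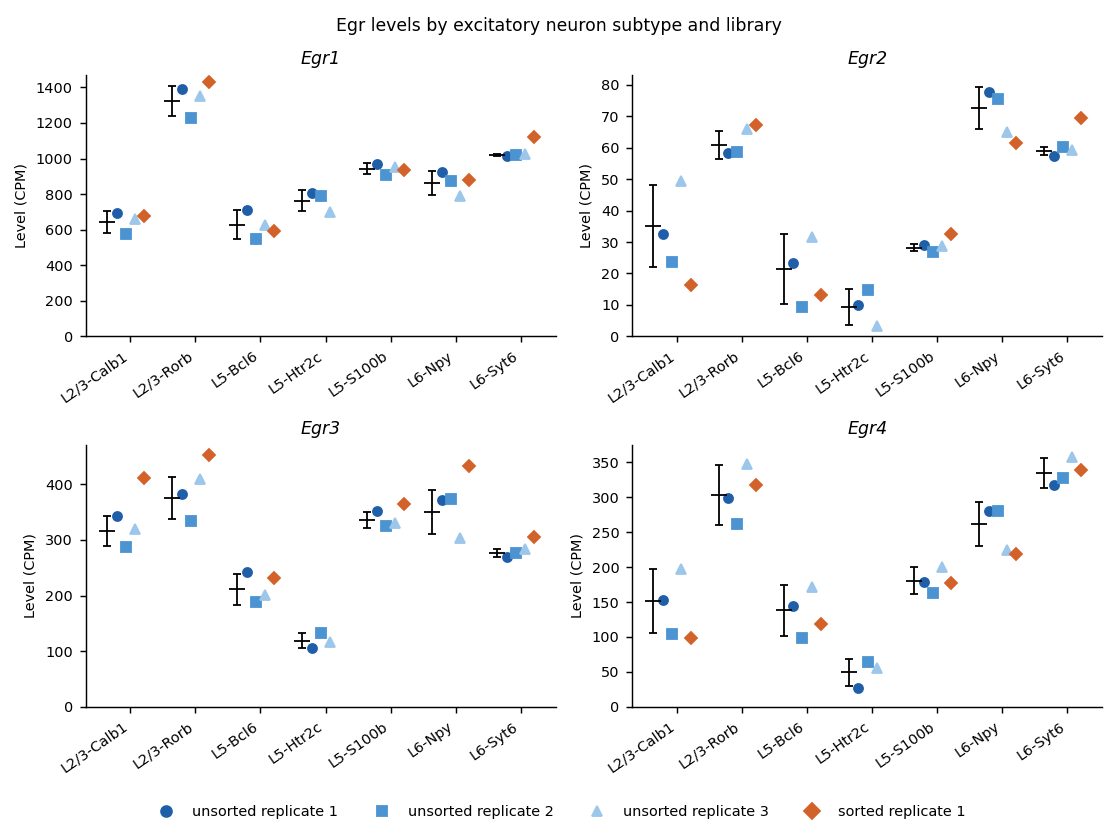
Level of each Egr gene, in CPM of the summed UMIs, in the 7 excitatory subtypes, with 1 point per library and the mean ± SD of the 3 unsorted libraries as a dash and bar in black. L5-Htr2c is lowest for Egr2, Egr3 and Egr4, with means of 9.27, 119 and 49.4 CPM, while L2/3-Rorb is highest for Egr1 and Egr3, at 1322 and 376 CPM.

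Egr1 was read in nearly every excitatory neuron. Its mean level was highest in L2/3-Rorb at 1322 ± 84.8 CPM (SD, n = 3 unsorted libraries), then 1020.5 ± 4.05 in L6-Syt6, 942 ± 30.6 in L5-S100b and 861 ± 68.1 in L6-Npy. L5-Htr2c followed at 763 ± 58.3, L2/3-Calb1 at 642 ± 61.7 and L5-Bcl6 at 627 ± 81.8 CPM. The libraries of L2/3-Rorb lay above those of all other subtypes and those of L6-Syt6 above the remaining ones, whereas L5-S100b and L6-Npy, L6-Npy and L5-Htr2c, and L2/3-Calb1 and L5-Bcl6 overlapped as neighbours.

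Egr3 had the same leading subtype. Its level was 376 ± 37.9 CPM in L2/3-Rorb, 350 ± 39.6 in L6-Npy, 336 ± 13.9 in L5-S100b and 316 ± 27.3 in L2/3-Calb1, and each of these neighbours overlapped with the next. L6-Syt6 at 276 ± 7.47, L5-Bcl6 at 211 ± 28.2 and L5-Htr2c at 119 ± 13.7 CPM followed without overlap.

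Egr2 and Egr4 were led by the L6 subtypes and L2/3-Rorb. Egr2 stood at 72.6 ± 6.81 CPM in L6-Npy, 61.0 ± 4.44 in L2/3-Rorb and 59.0 ± 1.35 in L6-Syt6, 3 subtypes whose neighbours overlapped. L2/3-Calb1 at 35.1 ± 13.1, L5-S100b at 28.2 ± 1.20, L5-Bcl6 at 21.4 ± 11.2 and L5-Htr2c at 9.27 ± 5.72 formed a lower series in which each neighbour overlapped with the next. Egr4 stood at 334 ± 21.4 CPM in L6-Syt6, 303 ± 43.0 in L2/3-Rorb and 262 ± 31.9 in L6-Npy. It was 181 ± 19 in L5-S100b, 152 ± 46.3 in L2/3-Calb1 and 138 ± 36.3 in L5-Bcl6, which overlapped, and 49.4 ± 19.6 in L5-Htr2c, below all others. In barcode-zero neurons alone, Egr4 was 91 CPM in L2/3-Calb1, below the 116 CPM of L5-Bcl6. In L5-Htr2c, a subtype marked by the serotonin receptor gene Htr2c (395 CPM) and by Tshz2 (1110.1 CPM), Egr2 was read at 9.90, 14.7 and 3.26 CPM in unsorted replicates 1 to 3, from 43 UMIs over 317 neurons, and Egr4 at 27.4, 64.9 and 56.1 CPM.

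The order of the subtypes was partly shared between the members. Over the 21 sums of 7 subtypes in 3 unsorted libraries, the Pearson correlation of log2(CPM + 1) was 0.89 for Egr2 with Egr4, 0.85 for Egr3 with Egr4 and 0.83 for Egr2 with Egr3, and lower for Egr1, at 0.58 with Egr4, 0.56 with Egr2 and 0.47 with Egr3. These sums share libraries and depth by subtype, and the values are descriptions. Among 9012 genes with a mean of at least 10 CPM, the other genes whose levels ran most alike were Nr4a1 (r = 0.94), Trnp1 (0.92) and Adra1b (0.90) for Egr1. They were Pfkp (0.87), Rap1b (0.87) and Bmp3 (0.86) for Egr2, Il1rap (0.97), Tacc1 (0.97) and Ankrd33b (0.96) for Egr3, and Rasl11b (0.90), Pik3r1 (0.89) and Nt5c3b (0.88) for Egr4. Nr4a1 encodes a nuclear receptor and is itself an immediate early gene.

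The transcripts were spread unevenly over neurons, both in the pool of excitatory neurons and within L6-Syt6. With each neuron thinned to 10000 UMIs, which left out 111, 58 and 52 neurons of unsorted replicates 1 to 3 and 49 of the sorted library, Egr1 was read in 98.1% ± 0.22 of excitatory neurons (SD, n = 3), Egr3 in 80.3% ± 0.83, Egr4 in 52.2% ± 1.05 and Egr2 in 25.5% ± 0.59. Without thinning the shares were 99.0%, 92.3%, 64.4% and 36.9%. In L5-Htr2c the thinned share was 6.17% ± 2.55 for Egr2 and 17.3% ± 5.88 for Egr4. In the pool, the tenth of neurons with the highest count held 64.0 to 66.0% of the thinned Egr2 UMIs in a library and 50.6 to 53.9% of Egr4 UMIs. It held 36.2 to 36.8% for Egr3 and 24.5 to 25.7% for Egr1. Within L6-Syt6 the shares were 55.9 to 60.9% for Egr2, 44.6 to 51.1% for Egr4, 38.3 to 39.1% for Egr3 and 23.9 to 24.6% for Egr1. A sparsely read gene can gather in few neurons by its low count alone, so these shares are not compared between genes.

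Egr genes were also read together. All 4 were found in 18.8 to 21% of neurons of a library at the thinned depth, and none of the 4 in 0.322 to 0.998%. Across neurons of a library, the Spearman correlation of thinned counts had medians over the 4 libraries from 0.36 for Egr2 with Egr3 to 0.53 for Egr1 with Egr4. For Egr2 with Egr4 the median was 0.60 in L6-Npy and 0.11 in L5-Htr2c, where both counts were sparse. Neurons of one library share its depth and its free RNA, so these correlations are descriptions.

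To place the neuronal levels, cells outside the annotated neurons were gated by their markers, with at least 3 of 5 markers of their own class and at most 1 of any other. Egr1 was broadly read. It stood at 1735 ± 97.0 CPM in microglia-like cells (SD, n = 3 unsorted libraries), 1630 ± 315 in mural-like cells and 1394 ± 113 in oligodendrocyte precursor-like cells, all above the 978 ± 17.2 of the pool of excitatory neurons. It was 576 ± 21.7 CPM in inhibitory neuron-like cells and 36.3 ± 3.57 in astrocyte-like cells, the lowest class. Egr4 was at 279 ± 17.6 CPM in the annotated excitatory neurons, 28.9 ± 4.22 in inhibitory neuron-like cells and between 3.96 and 7.18 in the glial and vascular classes. A further 20 to 33 cells per library outside the annotation passed the gate as excitatory neuron-like, with median UMIs of 2932 to 4818.5, and stood at 297 ± 90.8 CPM for Egr4, 301 ± 48.7 for Egr3 and 61 ± 42.3 for Egr2.

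Egr2 and Egr3 each had a second class of cells. Egr2 was 51.9 ± 0.92 CPM in excitatory neurons and 41.3 ± 4.48 in microglia-like cells, against 2.39 ± 0.94 in inhibitory neuron-like cells. Egr3 was 295 ± 3.46 CPM in excitatory neurons, 100.1 ± 6.09 in endothelial-like cells and 52.3 ± 1.43 in microglia-like cells. Free RNA can give UMIs in cells that do not express a gene, so the shares are given beside those of astrocyte-like cells at a common depth. With each cell thinned to 1000 UMIs, Egr1, Egr2, Egr3 and Egr4 were read in 2.64%, 0.27%, 0.27% and 0.76% of astrocyte-like cells, against 56.6%, 4.78%, 22.4% and 17.7% of excitatory neurons. The astrocyte-like values rest on 124 to 152 cells per library, and those of Egr2 and Egr3 were above 0 in 1 of the 3 libraries. The share of Egr2 in microglia-like cells was 4.33% and that of Egr3 in endothelial-like cells 7.85%, and Egr2 was read in 0% of inhibitory neuron-like cells. Egr4 was read in 3.73% of inhibitory neuron-like cells and 0.70% of microglia-like cells. Whether any of these shares is background from free RNA was not tested. A stricter gate with at least 4 markers and none of another class gave 43.4 CPM for Egr4 and 665 CPM for Egr1 in inhibitory neuron-like cells.

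**Figure D2:**
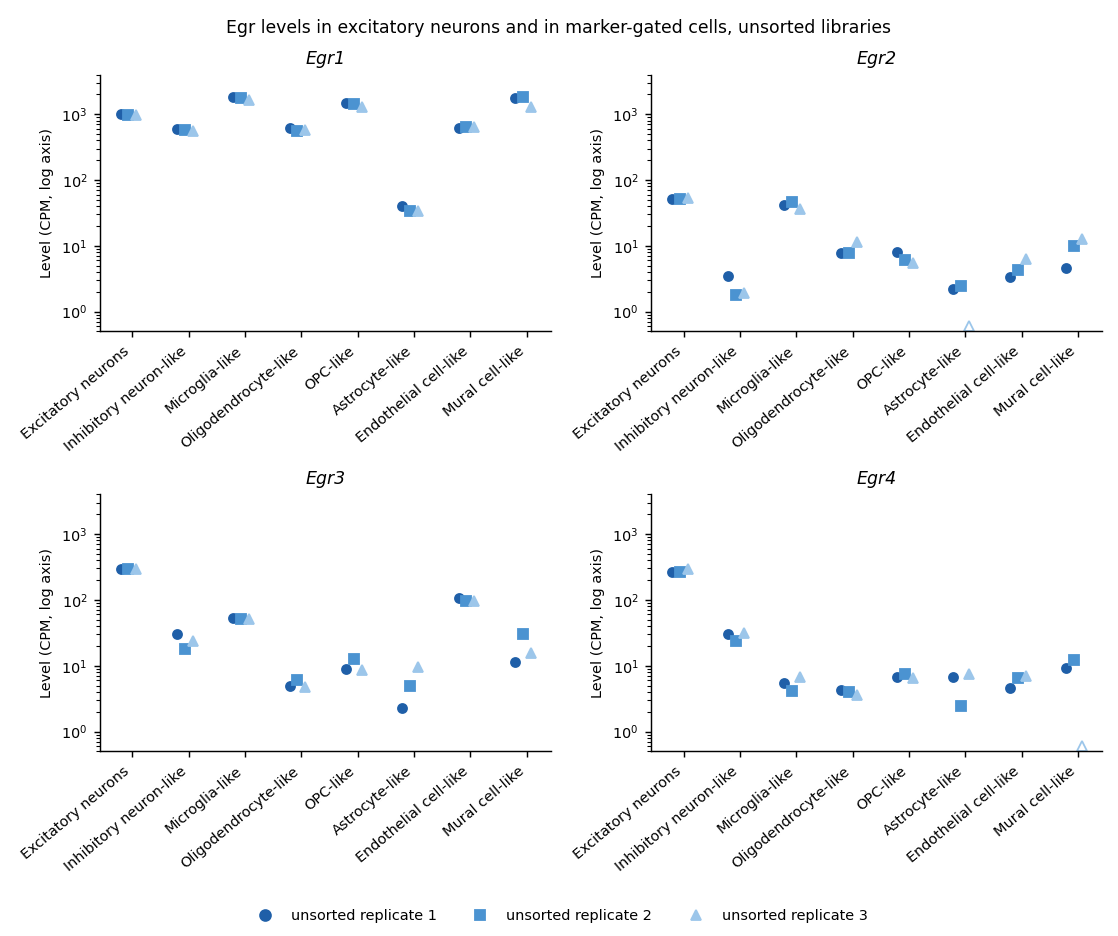
Level of each Egr gene in CPM on a log axis in the annotated excitatory neurons and in 7 classes of other cells (the few excitatory neuron-like cells outside the annotation are not plotted), with 1 point per unsorted library and open markers at the bottom for a level of 0. Egr1 is at a mean of 576 CPM or more in each class except astrocyte-like cells at 36.3 CPM, and Egr4 is at 279 CPM in excitatory neurons and at a mean of at most 28.9 CPM in the 7 other classes.

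The design also asks how neurons that carry the projection barcode differ from those in which none was read. Neurons with at least 5 raw UMIs of the feature named barcode, here called barcode-high, were set against neurons with 0, called barcode-zero, within each subtype and library. The counts were summed and fitted with edgeR, with the library as a block, and a gene was called at an adjusted p under 0.05 over all genes tested and a log2 fold of at least 0.5. In all excitatory neurons together, 2.34% of 14164 genes were called and 0 of the 4 Egr genes. Each of the 4 was higher in the barcode-high neurons of 4 of 4 libraries: the log2 fold was 0.23 for Egr1 (SE 0.10, adjusted p = 0.276), 0.54 for Egr2 (SE 0.21, 0.218), 0.49 for Egr3 (SE 0.07, 0.0245) and 0.73 for Egr4 (SE 0.27, 0.205). The ratio was larger in the sorted library: for Egr4 the log2 ratio of CPM was 1.83 there and 0.43, 0.38 and 0.30 in unsorted replicates 1 to 3. Without the sorted library the fitted log2 folds were 0.10 for Egr1, 0.29 for Egr2, 0.41 for Egr3 and 0.37 for Egr4. An unadjusted p under 0.05 was reached by 3 of the 4, and DESeq2 called 0. This pool mixes subtypes, which differ in both Egr level and barcode count, so the subtypes were compared one by one.

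**Figure D3:**
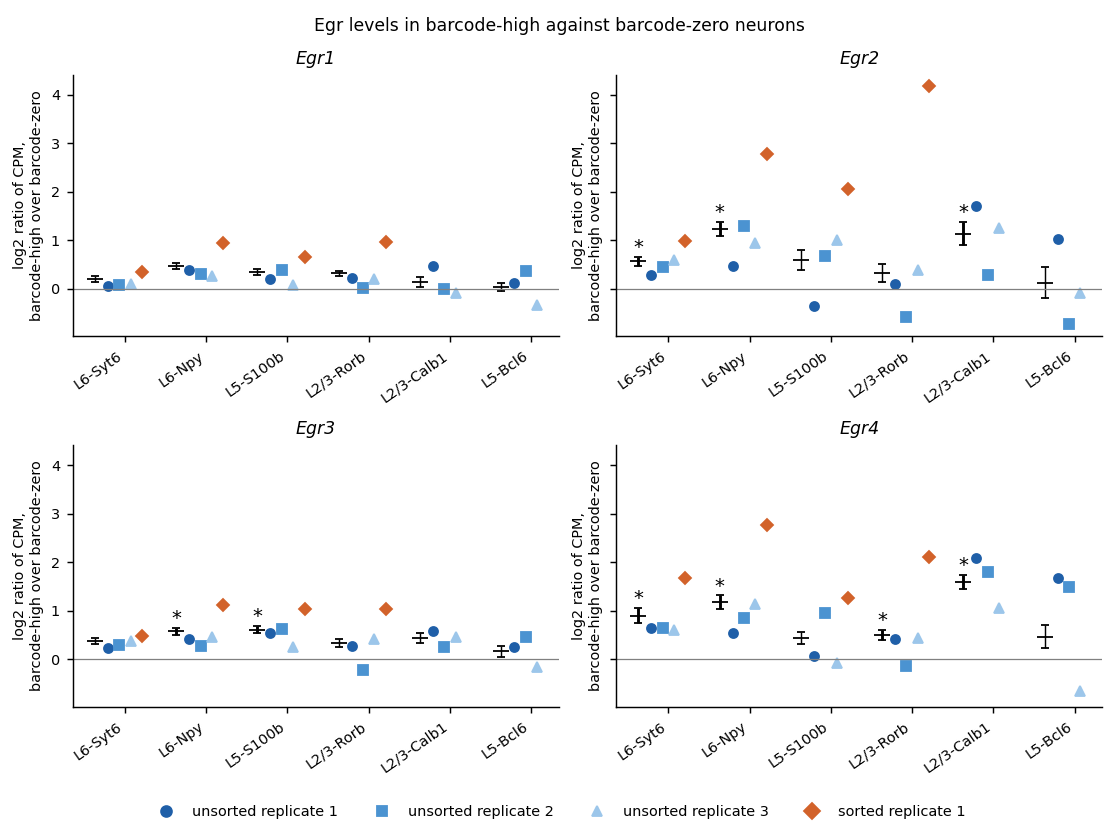
Log2 ratio of the level in barcode-high neurons to that in barcode-zero neurons for each Egr gene and subtype, with 1 coloured point per library and the edgeR log2 fold ± SE in black, marked by an asterisk where called. Egr4 reaches 0.90 in L6-Syt6, 1.18 in L6-Npy and 1.59 in L2/3-Calb1, and the 4 genes in L5-Bcl6 lie between 0.03 and 0.46.

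In L6-Npy, deep-layer neurons marked by neuropeptide Y transcripts, Egr2, Egr3 and Egr4 were called higher in barcode-high neurons, 3 of the 4 genes against 0.801% of 10365 genes tested. Egr4 was 352, 395, 311 and 393 CPM in the barcode-high neurons of unsorted replicates 1 to 3 and the sorted library, against 242, 219, 141 and 57.8 CPM in the barcode-zero neurons. Egr2 was 92.5, 107, 85.4 and 106 CPM against 67.3, 43.5, 44.3 and 15.3 CPM. For both genes each barcode-high sum lay above each barcode-zero sum, and the sorted library had the lowest barcode-zero level. How many of all genes tested separate in this way, or are higher in each library, was not counted in the pool or in any subtype. The log2 fold was 1.18 for Egr4 (SE 0.14, adjusted p = 7.66e-07) and 1.23 for Egr2 (SE 0.15, adjusted p = 4.27e-06). Egr3 stood at 432, 428, 335 and 589 CPM against 325, 357, 246 and 273 CPM, a log2 fold of 0.57 (SE 0.08, adjusted p = 7.67e-06), higher within each library although the ranges overlapped. Egr1 stood at 1036, 992, 862 and 1102 CPM against 795, 808, 725 and 578 CPM, without overlap. Its log2 fold of 0.47 (SE 0.06, adjusted p = 5.89e-06) fell short of the fold set for a call.

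The L6-Npy groups held 116 to 147 barcode-high and 49 to 68 barcode-zero neurons per library. Without the sorted library the log2 folds were 0.83 for Egr4, 0.90 for Egr2, 0.37 for Egr3 and 0.31 for Egr1, and Egr3 was no longer called. DESeq2 gave similar folds, 1.30 for Egr4, 1.34 for Egr2 and 0.56 for Egr3, but adjusted p of 0.498, 0.408 and 0.354, so that it called 0 of the 4 and 11 of all 10365 genes. The subtype's own marker Npy was lower in barcode-high neurons in each library, at 207, 198, 236 and 105 CPM against 279.7, 279, 297 and 156 CPM, and its part in the result was not tested. Median UMIs per neuron were higher in barcode-high neurons in each library, for example 20921 against 20475 in unsorted replicate 3 and 27410.5 against 24393 in the sorted library. Among neurons with 15000 to 30000 UMIs the log2 folds were 1.11 for Egr4, 1.14 for Egr2 and 0.51 for Egr3, and all 3 remained called.

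In L6-Syt6, the largest subtype, Egr2 and Egr4 were called higher in barcode-high neurons, 2 of the 4 genes against 1.67% of 13030 genes tested. L6-Syt6 neurons were marked by Syt6 and Foxp2, genes of corticothalamic layer 6 cells. Egr4 was 442, 450.2, 501 and 443 CPM in the barcode-high neurons of unsorted replicates 1 to 3 and the sorted library, against 282, 289.7, 328 and 138 CPM in the barcode-zero neurons. Egr2 was 68.7, 75.8, 79.2 and 82.5 CPM against 56.3, 55.6, 52.4 and 41.6 CPM. The groups did not overlap for either gene, and the sorted library again had the lowest barcode-zero level. The log2 fold was 0.90 for Egr4 (SE 0.15, adjusted p = 0.0129) and 0.56 for Egr2 (SE 0.09, adjusted p = 0.00991). Egr3 stood at 303, 323, 339 and 328 CPM against 259.5, 263, 264 and 237 CPM, a log2 fold of 0.38 (SE 0.06, adjusted p = 0.00929), below the fold set for a call. Egr1 stood at 1055, 1071, 1099.7 and 1190.1 CPM against 1013, 1016, 1027 and 934 CPM, with a log2 fold of 0.19 (SE 0.06, adjusted p = 0.101), and its groups did not overlap either.

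Several settings ended the L6-Syt6 calls. Neither gene was called with a threshold of 1 barcode UMI, where the log2 fold was 0.54 for Egr4 (adjusted p = 0.187) and 0.30 for Egr2 (0.184), or among neurons under 5% mitochondrial UMIs, where it was 0.54 (0.250) and 0.30 (0.373). Without the sorted library the log2 fold was 0.66 for Egr4, still called, and 0.47 for Egr2. Egr4 was not called without unsorted replicate 1 (adjusted p = 0.0760), and neither gene without unsorted replicate 2 (0.0986 for both) or 3 (0.0562 for Egr4 and 0.0770 for Egr2), although the folds there were 0.55 or more. All genes called in L6-Syt6 fell too, from 218 in the main fit to 27 with the threshold of 1 barcode UMI and 50 under 5% mitochondrial UMIs. They numbered 78, 28 and 77 without unsorted replicates 1 to 3, and 309 without the sorted library. Markers of mural cells moved with the groups: the summed list, led by Rgs5, was 6.31 to 11.5 CPM in barcode-high and 23.8 to 35.3 CPM in barcode-zero neurons and lower in the former in 4 of 4 libraries, while the defining gene Pdgfrb was at 0 to 0.187 and 0 to 0.484 CPM. Tshz2, a gene of near-projecting neurons, was 4.78, 5.42, 2.03 and 5.59 CPM in barcode-high and 15.7, 18.1, 13.1 and 18.9 CPM in barcode-zero neurons, while Syt6 was 133 to 173 and 127 to 178 CPM. Summed markers of microglia and of oligodendrocyte precursors were higher in barcode-high neurons in 0 of 4 libraries, and those of endothelial cells in 3 of 4. Median mitochondrial shares were 5.72, 5.65, 5.82 and 2.54% in barcode-high against 5.94, 5.92, 5.88 and 3.38% in barcode-zero neurons. Median UMIs per neuron were 24582 against 21684 in unsorted replicate 1 and 38604 against 30096.5 in the sorted library. Among neurons of 15000 to 30000 UMIs the log2 fold of Egr4 was 0.80, still called, and that of Egr2 0.48, under the fold set for a call. The part of the markers in the Egr result was not tested.

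Shares of neurons at a common depth showed the same direction. With neurons thinned to 10000 UMIs, Egr4 was read in 66.3% ± 1.53 of barcode-high L6-Syt6 neurons (SD, n = 3 unsorted libraries) and 52.1% ± 1.65 of barcode-zero ones, and in 72.5% and 34.2% in the sorted library. Egr2 was read in 36.9% ± 1.73 and 27.4% ± 1.21, and in 37.8% and 20.7% in the sorted library. In L6-Npy the shares were 56.5% ± 3.87 and 39.5% ± 4.16 for Egr4 and 34.0% ± 1.09 and 17.5% ± 5.76 for Egr2. The unsorted libraries of the compared groups did not overlap in any of these shares.

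In both L6 subtypes the levels were highest in the neurons with 20 or more barcode UMIs. In L6-Syt6, Egr4 averaged 300.0 ± 24.9 CPM (SD, n = 3 unsorted libraries) at 0 barcode UMIs, 223 ± 14.0 at 1 to 4, 366 ± 16.3 at 5 to 19 and 708 ± 106 at 20 or more, and the sorted library gave 138, 173, 363 and 587 CPM. In L6-Npy the same gene averaged 201 ± 53.3, 136 ± 40.4, 263 ± 52.5 and 631 ± 5.11 CPM, and the sorted library gave 57.8, 97.1, 331 and 779 CPM. The unsorted means were thus lower at 1 to 4 UMIs than at 0, whereas the sorted library rose through all 4 classes. Egr2 in L6-Npy averaged 51.7 ± 13.5, 46.8 ± 11.5, 75.4 ± 13.0 and 155 ± 10.3 CPM. Egr3 in L6-Npy went from 309 ± 57.2 at 0 to 525 ± 20.9 CPM at 20 or more UMIs, and Egr1 from 776 ± 44.6 to 1210.0 ± 57.0 CPM. In these 2 subtypes the class of 20 or more lay above the class of 0 in 4 of 4 libraries for each of the 4 genes. In L5-S100b it did so in 4 of 4 for Egr1, Egr3 and Egr4 and in 3 of 4 for Egr2. In L2/3-Rorb it did so in 4 of 4 for Egr1 and Egr4 and in 3 of 4 for Egr2 and Egr3. In L5-Bcl6 it did so in 2 of 3 for Egr1, Egr3 and Egr4 and in 1 of 3 for Egr2. Other genes were not counted in this way. With 20 or more UMIs in place of 5, the log2 fold against barcode-zero neurons was 2.07 for Egr4 and 1.94 for Egr2 in L6-Npy, and 1.47 and 1.08 in L6-Syt6.

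**Figure D4:**
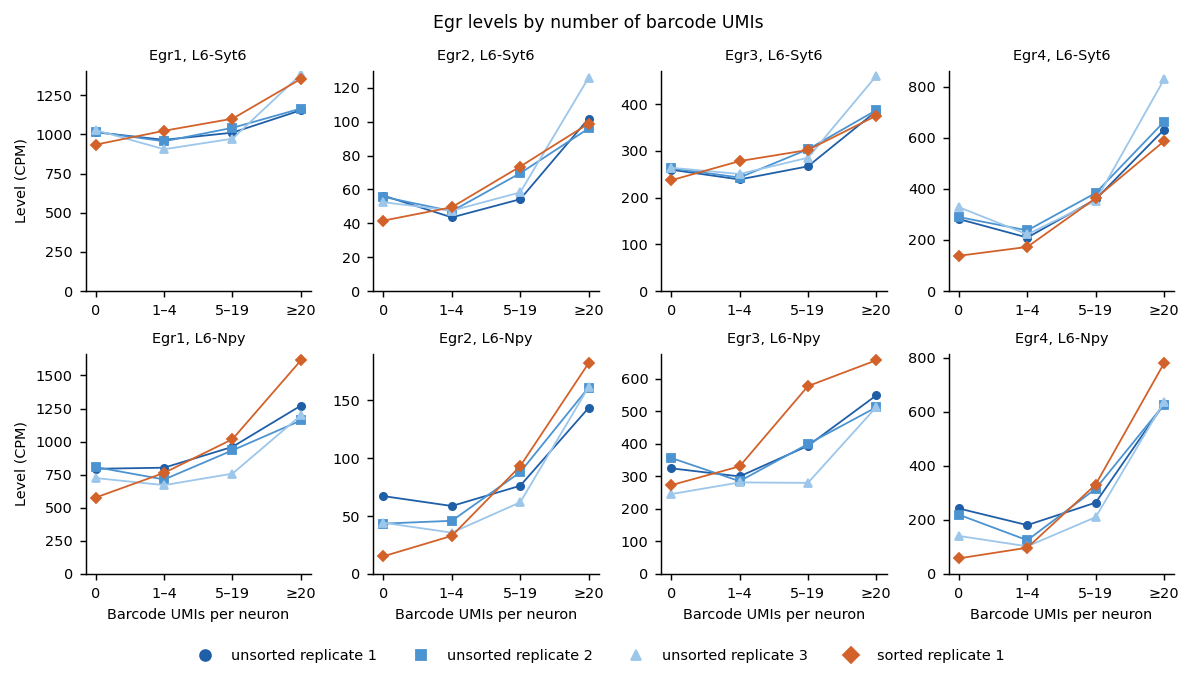
Level of each Egr gene in CPM by the raw barcode UMIs of the neuron (0, 1 to 4, 5 to 19, 20 or more) in L6-Syt6 and L6-Npy, with 1 line per library. Egr4 ends at 708 and 631 CPM on average over the unsorted libraries, after 300.0 and 201 CPM at 0 UMIs and a lower mean at 1 to 4 UMIs.

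In L2/3-Calb1, superficial neurons marked by calbindin transcripts, Egr2 and Egr4 were called in the 3 unsorted libraries, 2 of the 4 genes against 0.18% of 8340 genes tested. The sorted library held under 10 barcode-zero neurons of this subtype and was left out. Egr4 was 302, 223 and 284 CPM in barcode-high neurons and 71.2, 64.2 and 137 CPM in barcode-zero ones, without overlap. Its log2 fold of 1.59 (SE 0.15, adjusted p = 4.71e-08) had the lowest p of all genes tested in this subtype. Egr2 was 60.8, 29.3 and 81.6 CPM against 18.6, 24.0 and 34.1 CPM, a log2 fold of 1.13 (SE 0.24, adjusted p = 0.0233), and the groups overlapped. Egr3 had a log2 fold of 0.43 (SE 0.10, adjusted p = 0.0668) and Egr1 of 0.13 (SE 0.09, adjusted p = 0.947). Summed microglia markers were 3.66 to 8.94 CPM in barcode-high and 6.00 to 15.3 CPM in barcode-zero neurons. They and the summed mural markers were higher in barcode-high neurons in 0 of 3 libraries, and summed excitatory neuron markers in 3 of 3. The part of these markers in the result was not tested.

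These L2/3-Calb1 values rest on few cells. The barcode-high groups were 29, 25 and 28 neurons, of which 8, 6 and 8 had 20 or more barcode UMIs. Those few held 43.8%, 65.6% and 92.5% of the Egr4 UMIs of the barcode-high group, against 29.3%, 25.4% and 32.4% of its total UMIs. The 3 neurons with the highest counts held 69.8%, 52.5% and 83.9% of the Egr4 UMIs, whereas 3 such neurons held 3.83 to 5.79% in L6-Syt6 and 12.4 to 13.7% in L6-Npy. Egr2 was called neither without unsorted replicate 1 nor without unsorted replicate 3, and DESeq2 called Egr4 (log2 fold 1.63, adjusted p = 9.73e-08) and not Egr2 (1.11, adjusted p = 1.00).

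In L5-S100b, a layer 5 subtype, Egr3 was called, 1 of the 4 genes against 2.7% of 11477 genes tested. Egr3 was 375, 341, 347 and 402 CPM in the barcode-high neurons of unsorted replicates 1 to 3 and the sorted library, against 260.0, 222, 290.1 and 196 CPM in the barcode-zero neurons, without overlap. The log2 fold was 0.61 (SE 0.08, adjusted p = 1.32e-06), and 0.49 without the sorted library, just under the fold set for a call. Egr1 had a log2 fold of 0.34 (SE 0.06, adjusted p = 3.17e-04) and was higher in 4 of 4 libraries. Egr4 was 187, 184, 209 and 211 CPM against 179, 95, 221 and 87.5 CPM, a log2 fold of 0.43 (SE 0.12, adjusted p = 0.0210), with overlap and a lower barcode-high value in unsorted replicate 3. It was called without unsorted replicate 1 or 3, with log2 folds of 0.60 and 0.65, and stood at 0.31 without unsorted replicate 2 and 0.25 without the sorted library. Egr2 had a log2 fold of 0.59 (SE 0.21, adjusted p = 0.0979), and without unsorted replicate 1, where its barcode-high level was the lower one at 29 against 37.0 CPM, it was called at 1.17. Without the sorted library Egr2 stood at 0.32. Markers moved with these groups too: S100b was 54.6, 61.5, 62.8 and 48.9 CPM in barcode-high neurons against 18.1, 43.2, 11.6 and 37.5 CPM, and the summed oligodendrocyte precursor markers were 11 to 16.4 against 18.1 to 43.1 CPM, lower in 4 of 4 libraries. Their part in the result was not tested.

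In L2/3-Rorb, superficial neurons marked by the nuclear receptor gene Rorb, Egr4 was called, 1 of the 4 genes against 0.139% of 10038 genes tested. Egr4 was 326, 254, 372 and 403 CPM against 246, 282, 275 and 93.6 CPM, with overlap and a lower barcode-high value in unsorted replicate 2. The log2 fold of 0.50 (SE 0.11, adjusted p = 0.0132) rested on the sorted library, whose barcode-zero group had 15 neurons: without it the log2 fold was 0.25 (adjusted p = 0.241), and that of Egr2 went from 0.32 (SE 0.18, adjusted p = 0.785) to -0.03. The Egr4 call was also lost without unsorted replicate 1 (0.55, adjusted p = 0.357) and in DESeq2, which called 0 of the 4 and 0 of all 10038 genes, with 132 at an unadjusted p under 0.05 (Egr4 0.67, adjusted p = 1.00). Markers of other cells moved with the groups: the summed mural markers were 3.81 to 26.3 CPM in barcode-high and 0 to 4.58 CPM in barcode-zero neurons, higher in 4 of 4 libraries, with the defining gene Pdgfrb at 0 in each barcode-zero group. S100b was 15.8, 17.6, 16.3 and 2.96 CPM against 1.18, 0, 3.05 and 0 CPM, and Etv1, a layer 5 marker, was higher in 4 of 4 libraries. Their part in the result was not tested. Egr1 had a log2 fold of 0.31 (SE 0.06, adjusted p = 0.00304) and Egr3 of 0.32 (SE 0.08, adjusted p = 0.0551). In L5-Bcl6, 0.0686% of 8752 genes and 0 of the 4 Egr genes were called in the 3 unsorted libraries, with log2 folds from 0.03 for Egr1 (adjusted p = 0.986) to 0.46 for Egr4 (SE 0.24, adjusted p = 0.791) and groups that overlapped for each gene. DESeq2 also called 0 there, and 0 had an unadjusted p under 0.05. Egr4 there was 178, 130.1 and 155 CPM against 55.8, 46.2 and 246 CPM, and without unsorted replicate 3, the library with the highest barcode-zero value, it was called at a log2 fold of 1.59, while without unsorted replicate 1 or 2 it stood at 0.02 and 0.18. L5-Htr2c had at most 4 barcode-high neurons per library and was not compared.

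Whether the barcode contrast differed between subtypes was tested with an interaction term over L6-Syt6, L6-Npy, L5-S100b and L2/3-Rorb. It was called for 7.36% of 12081 genes and for 0 of the 4 Egr genes by edgeR, with adjusted p of 0.482 for Egr1, 0.303 for Egr2, 0.533 for Egr3 and 0.322 for Egr4, and 0 with an unadjusted p under 0.05. Without the sorted library Egr1, Egr2 and Egr4 were called, 3 of the 4 against 10.4% of 12133 genes. The log2 fold of Egr4 was larger by 0.75 in L6-Npy than in L5-S100b (95% interval 0.12 to 1.38, adjusted p = 0.388), and that of Egr2 differed by -0.67 between L6-Syt6 and L6-Npy (-1.20 to -0.14, adjusted p = 0.197). For Egr4 the difference of L6-Syt6 from L6-Npy was -0.31 with an interval from -0.84 to 0.21. With all 4 libraries the subtypes were not shown to differ, and the intervals are wide enough to hold differences of the size of the folds themselves.

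Other genes of the pathway were read in the same contrast, from lists that follow the route from signal to target. Of all genes, 1.67% were called in L6-Syt6, 0.801% in L6-Npy, 2.7% in L5-S100b, 0.139% in L2/3-Rorb, 0.18% in L2/3-Calb1 and 0.0686% in L5-Bcl6. Upstream regulators showed few calls. In L6-Syt6, 0 of 18 genes of the serum response factor, CREB and ERK route were called, with a median log2 fold of 0.03 beside -0.005 for all genes. The lowest adjusted p of that list belonged to the kinase genes Rps6ka3 (-0.39, adjusted p = 0.0159), Mapk3 (0.25, 0.0159) and Map2k1 (0.28, 0.0178) and to the CREB-family gene Crem (-0.21, 0.0459), below the fold set for a call. In L6-Npy, 1 of 16 was called, Srf itself, named after its values were seen, at 33.2 against 20.5 CPM (log2 fold 0.72, SE 0.18, adjusted p = 0.0314), and Mapk3 went the other way from L6-Syt6 (-0.29, adjusted p = 0.00586). Of the co-repressors Nab1 and Nab2, 0 were called in any subtype, with log2 folds of -0.13 and 0.09 in L6-Syt6. Over the 6 subtypes compared, the median of the upstream list lay between -0.15 in L5-Bcl6 and 0.06 in L6-Npy.

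Feedback genes of the ERK cascade rose in part, beside 1.67% of all genes called in L6-Syt6 and 0.801% in L6-Npy. In L6-Syt6, 2 of 9 were called higher and 1 lower, with a median of -0.14: Dusp6, a phosphatase specific for ERK, at 60.3 against 36 CPM (log2 fold 0.73, SE 0.08, adjusted p = 0.00284), Dusp1, a phosphatase of several MAP kinases, at 356 against 228 CPM (0.69, SE 0.13, 0.0185), and the inhibitor gene Spry4 at 2.04 against 3.86 CPM (-0.84, SE 0.18, 0.0266). In L6-Npy 2 of 7 were called higher, again Dusp6 (1.20, SE 0.12, adjusted p = 1.41e-07) and Dusp1 (0.80, SE 0.10, 5.89e-06), with a median of 0.32. Dusp14 stood at 0.40 in L6-Syt6 (adjusted p = 0.0260).

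Each call among the other immediate early genes was in the direction of the Egr genes. In L6-Syt6, 7 of 24 were called higher and 0 lower, beside 1.67% of all genes called. Of the 24, 21 were positive, with a median of 0.41 beside -0.005 for all genes. In L6-Npy 12 of 21 were called higher and 0 lower, beside 0.801% of all genes called, with a median of 0.58 beside -0.003. DESeq2 called 11 genes in all in L6-Npy and the fit with no replicate block 0, so the list calls there depend on the fit. Nr4a2, an orphan nuclear receptor gene, had a log2 fold of 0.55 in L6-Syt6 (SE 0.07, adjusted p = 0.00311) and 1.55 in L6-Npy (SE 0.11, 4.41e-12), where it averaged 182 CPM in barcode-high and 62.4 CPM in barcode-zero neurons. Its relative Nr4a3 stood at 0.41 (adjusted p = 0.00250) and 0.65 (7.67e-06), and the AP-1 gene Fosl2 at 0.61 (0.00433) and 0.70 (2.47e-05). Junb, another AP-1 gene, was called in L6-Syt6 at 0.53 (adjusted p = 0.0115). In L5-S100b 4 of 22 were called higher, in L2/3-Calb1 2 of 18, in L2/3-Rorb 0 of 20 and in L5-Bcl6 0 of 18, and none was called lower in these 4 subtypes. Since the Egr genes and these lists were chosen with earlier results known, the counts describe the contrast and give no independent support.

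**Figure D5:**
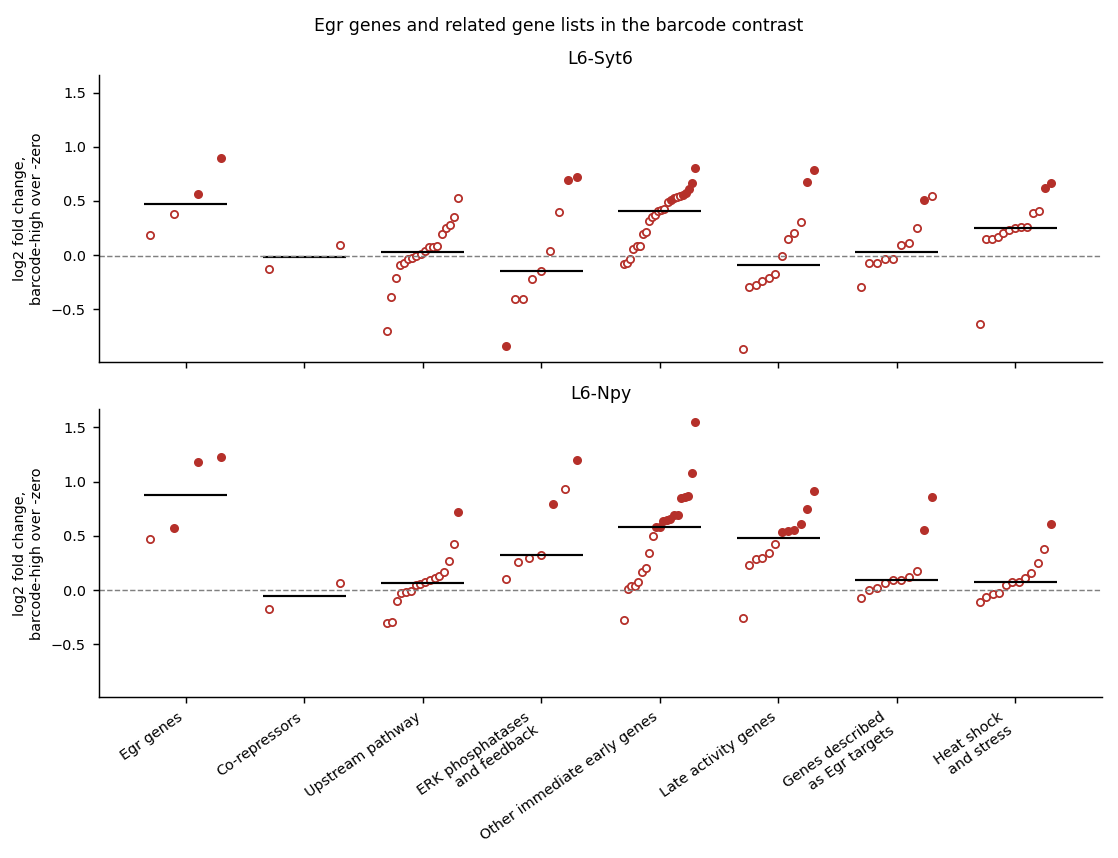
Log2 fold of barcode-high against barcode-zero neurons for the genes of each list in L6-Syt6 and L6-Npy, with 1 point per gene, filled where called, and a bar at the list median. The dashed line is the median of all genes tested, -0.005 in L6-Syt6 and -0.003 in L6-Npy. The other immediate early genes have medians of 0.41 and 0.58, while the upstream pathway has medians of 0.03 and 0.06.

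Late activity genes and described Egr targets were read next, and no difference of either list between subtypes was tested. Of 12 late genes 2 were called higher in L6-Syt6 (median -0.09, 5 positive), beside 1.67% of all genes called. In L6-Npy 6 were called higher (median 0.48, 11 positive), beside 0.801% of all genes. Neither subtype had a lower call. Gadd45b, a DNA damage and demethylation gene, had log2 folds of 0.78 (SE 0.07, adjusted p = 8.16e-04) and 0.74 (SE 0.13, 3.64e-04), and the neurotrophin gene Bdnf 0.68 (SE 0.10, 0.00727) and 0.53 (SE 0.08, 1.53e-05). Vgf, a secreted neuropeptide precursor also described as an Egr target, fell short of a call at -0.30 in L6-Syt6 (adjusted p = 0.0283) and was called at 0.56 in L6-Npy (0.00205) and 0.52 in L2/3-Rorb (0.00117). The difference of Vgf between subtypes was not tested. Of 10 described targets tested, 1 was called higher in L6-Syt6 (Arc, median 0.03) and 2 were in L6-Npy (Arc and Vgf, median 0.09). Arc was also counted among the other immediate early genes and Vgf among the late genes. Arc, which encodes a synaptic capsid-like protein, was called in both, at 403 against 290 CPM in L6-Syt6 (0.51, SE 0.12, adjusted p = 0.0363) and 220 against 122 CPM in L6-Npy (0.85, SE 0.12, 2.12e-05). Syn2, a synaptic vesicle gene, stood at 0.25 in L6-Syt6 (adjusted p = 0.0159) and 0.00 in L6-Npy (0.995), and Mmp9 and Ngfr were too low to be tested.

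Heat shock genes, read as a sign of cell stress in dissociated tissue, moved with the groups in L6-Syt6. There 2 of 13 were called higher, beside 1.67% of all genes called, and 12 of 13 were positive. The median was 0.25, beside -0.005 for all genes. Hspa8, a constitutive chaperone gene, had a log2 fold of 0.66 (SE 0.12, adjusted p = 0.0131) and its co-chaperone gene Dnajb1 of 0.62 (SE 0.11, 0.0167). In L6-Npy 1 of 12 was called, beside 0.801% of all genes: Dnajb1 at 0.61 (SE 0.09, adjusted p = 7.44e-05), with a median of 0.07 and Hspa8 at 0.07 (0.574). The part of these genes in the Egr result was not tested.

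The sorted library was set against the 3 unsorted ones within each subtype, a comparison in which the sort, the animals, the depth and the single library cannot be told apart. Called genes made up 14.6% in all excitatory neurons, 9.34% in L6-Syt6, 13.5% in L5-S100b, 20.6% in L6-Npy, 18.7% in L2/3-Rorb, 20.7% in L2/3-Calb1 and 13.6% in L5-Bcl6. Of the 4 Egr genes 0 were called in each of these except L2/3-Calb1, where 2 were lower in the sorted library: Egr2 at 16.3 CPM against 32.4, 23.6 and 49.3 CPM (log2 fold -1.27, SE 0.36, adjusted p = 0.00538) and Egr4 at 98.9 CPM against 152.7, 104.7 and 197.4 CPM (-0.79, SE 0.20, 0.00173). The sorted library held 40 neurons of that subtype, neither call remained without unsorted replicate 1, and DESeq2 called 0 in that subtype as in the others. In the subtypes without a call by edgeR, 0 to 3 of the 4 had an unadjusted p under 0.05. Smaller differences past the adjusted p alone were a higher Egr3 in all excitatory neurons (345 against 295 ± 3.46 CPM, log2 fold 0.13, adjusted p = 0.0164), a higher Egr2 in L6-Syt6 (69.4 against 59.0 ± 1.35 CPM, 0.15, 0.0391) and lower Egr2 and Egr4 in L6-Npy (-0.37, 0.00306, and -0.39, 6.63e-04). The Egr2 difference in L6-Syt6 turned to -0.27 among neurons of 15000 to 30000 UMIs, and those of Egr2 and Egr4 in L6-Npy to 0.05 and 0.04 among barcode-high neurons.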

How the data were processed

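Per the labels and the study's methods, the authors made the deposited counts with Cell Ranger 3.0.2 on an mm10 reference to which the viral sequences were added. The submitters' processing notes also name Seurat 3.1.4 and a Scanpy version 3.0.46. The values are whole UMI counts per gene and cell, and the authors' table of excitatory neurons gave the subtypes. Filters applied here required 500 to 8000 detected genes, 1000 to 60000 UMIs, and a mitochondrial share below 20%. No doublet caller was run. That the feature named barcode sums the 5 projection barcodes was not tested, and calls per target were not analysed here.

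UMIs were summed per library, subtype and barcode group (10 or more neurons per sum, 3 or more libraries) and fitted with edgeR 4.0.16 (TMM factors, filterByExpr, quasi-likelihood F test, Benjamini-Hochberg adjustment over all genes) in R 4.3.3. Because barcode-high and barcode-zero sums come from the same library, the library was a block. SE is the log2 fold divided by the square root of F. In the sorted contrast the single sorted library was assumed to vary like the unsorted ones. DESeq2 1.42.0 was an alternative, and the edgeR fit was tested on simulated data. Sums and levels were computed with Python 3.11.15, pandas 2.3.3, numpy 2.4.6 and scipy 1.17.1. The 4 members were named in each comparison. Genes of 7 lists were named by the lowest adjusted p in L6-Syt6 or a change of direction between subtypes. Srf, outside that rule, was named after its values were seen. The members and lists were chosen with earlier results of these data known. The 95% intervals of differences between subtypes come from the edgeR fit.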

Additional observations from a re-analysis of the deposited data

How the results depend on the processing

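The pairing of barcode-high and barcode-zero sums by library decided several calls: with no replicate block, 0 of the 4 Egr genes were called in both L6 subtypes, L2/3-Rorb and L5-S100b, where all genes called numbered 75, 0, 0 and 56 in L6-Syt6, L6-Npy, L2/3-Rorb and L5-S100b, and the log2 fold of Egr4 in L6-Npy was 1.13 (adjusted p = 0.885). DESeq2 called 0 in L6-Npy and L2/3-Rorb and 1 in L2/3-Calb1, of 11, 0 and 2 genes called in all. A threshold of 1 barcode UMI gave 0 calls in L6-Syt6 and L2/3-Rorb and 1 in L2/3-Calb1, of 27, 6 and 4 genes called in all. It turned Egr2 in L5-Bcl6 to -0.045. A threshold of 20 or more UMIs gave 1 in all excitatory neurons, 3 in L5-S100b and 2 in L2/3-Rorb. All genes called there were 591 of 13157, 453 of 10484 and 42 of 9107. With no filter on low counts there was 1 in all excitatory neurons and 2 in L5-S100b, of 508 and 355 genes called in all. Neurons of 15000 to 30000 UMIs gave 1 in all excitatory neurons, 1 in L6-Syt6, 2 in L5-S100b and 0 in L2/3-Rorb. All genes called there numbered 904, 154, 203 and 3. Under 5% mitochondrial UMIs 0 were called in L6-Syt6, of 50 genes called in all.

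Leaving out each library in turn gave 0 to 0 calls in all excitatory neurons, 0 to 1 in L6-Syt6, 0 to 3 in L5-S100b, 2 to 4 in L6-Npy, 0 to 2 in L2/3-Rorb, 1 to 2 in L2/3-Calb1, 0 to 1 in L5-Bcl6 and 0 to 3 for the interaction. All genes called numbered 0 to 1386, 28 to 309, 178 to 289, 45 to 75, 2 to 33, 12 to 26, 4 to 31 and 334 to 1259 in the same order. In all excitatory neurons 0 genes of any kind were called without unsorted replicate 1, 2 or 3. Log2 folds then ranged from -0.027 to 0.68 for Egr2 in L2/3-Rorb, -0.037 to 0.24 for Egr1 in L2/3-Calb1, -0.12 to 0.23 for Egr1 and -0.28 to 0.33 for Egr2 in L5-Bcl6, 0.02 to 1.59 for Egr4 in L5-Bcl6, 0.25 to 0.65 for Egr4 and 0.32 to 1.17 for Egr2 in L5-S100b, 0.66 to 1.00 for Egr4 in L6-Syt6 and 0.83 to 1.42 for Egr4 in L6-Npy. In the sorted contrast, the 15000 to 30000 UMI window changed the Egr calls in all excitatory neurons, L6-Syt6, L6-Npy and L5-Bcl6. It gave a log2 fold of -0.27 for Egr2 in L6-Syt6. The Egr calls in L2/3-Calb1 also depended on the test, the neurons used and the libraries kept, and those in L5-Bcl6 on the libraries kept. In L2/3-Calb1, leaving out an unsorted library gave log2 folds of -1.49 to -0.93 for Egr2 and -0.99 to -0.54 for Egr4. Among barcode-high neurons Egr2 and Egr4 in L6-Npy stood at 0.045 and 0.045.

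Among alternative log2 folds of the barcode contrast, 247 kept direction and side of the threshold, 33 fell below it, 17 passed it and 6 turned. The causes were not tested. The limit of 5% mitochondrial UMIs left under 3 libraries in each subtype compared except L6-Syt6, and the threshold of 20 left none in L2/3-Calb1. Of 32 mean levels by subtype, 16 moved by more than the spread between libraries when computed from barcode-zero neurons alone.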
